A study of Mus musculus with 8 samples.

Results

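This report describes 9 genes that set muscle fiber type or mitochondrial content, *Six4*, *Eya1*, *Sox6*, *Tead1*, *Prox1*, *Ppargc1a*, *Ppargc1b*, *Esrra* and *Esrrg*, in the quadriceps of mice with and without the nuclear pore protein Nup210. They were picked by gene symbol from the 47643 genes of the expression table, and each symbol matched a row. The study sequenced polyadenylated RNA from the quadriceps of 8 mice backcrossed to C57BL/6J, 4 labelled *Nup210*-/- and 4 labelled *Nup210*+/+, with 1 library for each mouse. The *Nup210*-/- line is a constitutive knockout, made by recombining loxP-flanked exon 2 with Hprt-Cre, so every cell type of the muscle carries the deletion. The age and sex of these mice are not given in the sources used here. Whole muscle was lysed, so fewer cells of a type and less RNA per cell cannot be told apart. The question for these genes is whether the regulators that stand behind slow, fast and oxidative muscle differ between the genotypes.

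Slow fibers contract slowly, are rich in mitochondria and use type I myosin, while fast fibers use type II myosins and lean more on glycolysis. Homeodomain proteins such as that of *Six4* turn on fast fiber genes with their Eya coactivators, Sox6 represses slow fiber genes, and Tead1 and Prox1 are tied to the slow program. PGC-1alpha and PGC-1beta, the products of *Ppargc1a* and *Ppargc1b*, are coactivators that work with the estrogen-related receptors ERRalpha and ERRgamma, the products of *Esrra* and *Esrrg*, to drive the genes of mitochondria and fat oxidation.

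Expression was given as TPM, an estimate of transcript abundance that is divided by transcript length and sums to the same total in each library, and 18185 to 19357 genes were above 0 in a library. The tissue label held: 7 muscle fiber markers such as *Ckm* and *Acta1* summed to 70560 to 74220 TPM in *Nup210*+/+ and 76850 to 82390 TPM in *Nup210*-/- libraries. *Nup210* mRNA was 9.54, 10.79, 11.93 and 8.81 TPM in the libraries labelled *Nup210*-/- (replicates 1 to 4, the order used throughout) and 5.71, 10.11, 9.19 and 6.71 TPM in those labelled *Nup210*+/+. It was not lower in the knockout, and a value for the whole gene does not show exon 2, so every direction below rests on the labels. Markers of some other cells were separated by genotype: the summed TPM of 12 leukocyte markers was 245 to 270.6 in *Nup210*-/- against 280.4 to 549.4 in *Nup210*+/+, and that of 7 fibro-adipogenic markers 691.9 to 813.4 against 820.9 to 1413. The sums overlapped for blood endothelium, with 113.4 to 123.3 against 107 to 129 TPM. They also overlapped for mural cells, adipocytes, Schwann cells and satellite cells. For lymphatic endothelium the overlap was narrow, with 39.6 to 54.37 TPM in *Nup210*-/- against 54.29 to 88.67 TPM in *Nup210*+/+. *Nup210*+/+ replicate 2 stood apart with 381.7 TPM of granulocyte precursor markers, where no other library exceeded 2.12, and *Nup210*+/+ replicate 3 with 1442 TPM of adipocyte markers, where the others had 549.1 to 860.8. The part of these cells in the values below was not tested.

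None of the 9 regulators passed an adjusted p of 0.05 between the genotypes. *Sox6* had the largest higher estimate in *Nup210*-/- muscle and *Esrrg* the largest lower one, with log2 fold changes of 0.26 and -0.29, and the 7 others lay between -0.12 and 0.25. Differences are log2 fold changes of scaled TPM + 1, *Nup210*-/- over *Nup210*+/+, after each library was scaled by a median of ratios, and were fitted with limma over 14229 genes with Benjamini-Hochberg adjustment. In this fit 0.112% of all genes passed the adjusted threshold. At an unadjusted p of 0.05 limma called 2 of the 9 regulators, *Sox6* and *Esrrg*, beside 14.2% of all genes, of which 7.00% were called higher and 7.18% lower. The genotypes overlapped for each of the 9 regulators, both in TPM and in scaled TPM, while they did not overlap in scaled TPM for 9.38% of all genes. The median log2 fold change of the 9 was 0.04, with 6 estimates higher and 3 lower, against a median of -0.01 over all genes. These near-0 estimates depend on the scaling: with TPM as deposited 2 were higher and 7 lower, and 30.4% in place of 48.7% of all genes were higher. Without *Nup210*+/+ replicate 2 they were 3 and 6. Their median difference in size, regardless of sign, was 0.07, against 0.13 over all genes.

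**Figure D1:**
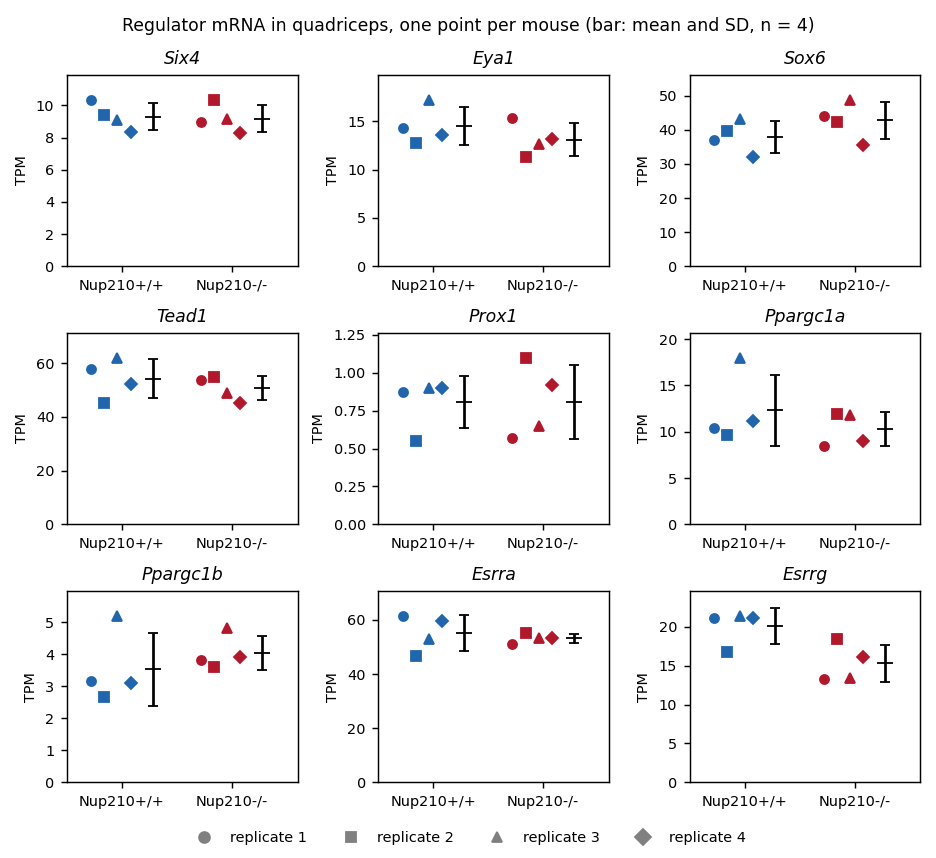
TPM of the 9 regulators in each of the 8 mice, with *Nup210*+/+ in blue and *Nup210*-/- in red, replicate numbers as symbols, and the mean and SD (n = 4) of each genotype as black bars. The genotypes overlap in each panel, from *Six4*, with means of 9.31 and 9.19 TPM, to *Esrrg*, with means of 20.1 and 15.3 TPM.

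The level of the regulators spanned from above 50 TPM to below 1. Averaged over the 8 libraries, *Esrra* had 54.1 TPM, *Tead1* 52.5, *Sox6* 40.3, *Esrrg* 17.7, *Eya1* 13.8, *Ppargc1a* 11.3, *Six4* 9.25, *Ppargc1b* 3.79 and *Prox1* 0.81 TPM. The ranges of neighbors over mice overlapped from *Esrra* to *Sox6* and from *Esrrg* to *Six4* in this order. Within a library, *Tead1* was above *Sox6* in each of the 8. *Esrrg* was above *Eya1* in 7, as was *Ppargc1a* above *Six4*. *Esrra* was above *Tead1* in 6, as was *Eya1* above *Ppargc1a*. *Sox6* was separated from *Esrrg*, *Six4* from *Ppargc1b*, and *Ppargc1b* from *Prox1*, in all 8 libraries. Both coactivators were below both of their partner receptors in every mouse. The spread between mice was narrowest for *Esrra* in *Nup210*-/- muscle, with a coefficient of variation of 3.11%, and widest for *Ppargc1b* in *Nup210*+/+ muscle, with 32.1%. The highest library exceeded the lowest by 1.25-fold for *Six4* and by 2.13-fold for *Ppargc1a*, the ends of the range over the 9 genes.

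*Six4* and *Eya1* encode a homeodomain factor and its coactivator phosphatase, which act together on fast fiber genes. *Six4* (ENSMUSG00000034460), on the minus strand of chr12:73099609-73113456 in GRCm38, had 8.95, 10.36, 9.14 and 8.3 TPM in *Nup210*-/- and 10.37, 9.43, 9.09 and 8.35 TPM in *Nup210*+/+ mice. The values of the genotypes nearly coincide, with means of 9.19 ± 0.86 and 9.31 ± 0.838 TPM (SD, n = 4), and the log2 fold change was 0.07 (95% interval -0.13 to 0.26, limma adjusted p = 0.75). *Eya1* (ENSMUSG00000025932), on the minus strand of chr1:14168954-14310235, had 15.37, 11.26, 12.63 and 13.21 TPM against 14.32, 12.73, 17.26 and 13.59 TPM. Its highest library was *Nup210*+/+ replicate 3 and its lowest *Nup210*-/- replicate 2, and the log2 fold change was -0.04 (-0.30 to 0.21, limma adjusted p = 0.89).

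Of 10 relatives and partners of *Six4* and *Eya1*, 8 were expressed enough to be tested and none passed the adjusted threshold. *Six3* and *Six6*, which act in the eye and forebrain, were listed at or next to 0. At an unadjusted p of 0.05 limma called 3 of the 8, all higher in *Nup210*-/-, the direction in which 7.00% of all genes were called. *Six2*, best known from kidney progenitors, had 3.44 to 5.55 TPM in *Nup210*-/- and 1.75 to 3.32 TPM in *Nup210*+/+ mice, without overlap, as for 4.79% of all genes in the higher direction after scaling. Its log2 fold change was 0.64 (0.26 to 1.02, limma adjusted p = 0.17), the largest of the list. The coactivator *Eya4* had 15.04 to 18.61 TPM against 12.34 to 16.94 TPM, with a log2 fold change of 0.31 (limma adjusted p = 0.183), and *Eya2* had the lowest estimate, -0.52 (limma adjusted p = 0.489). The median log2 fold change of the 8 genes was 0.14.

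*Sox6* and *Prox1* act on opposite sides of the slow program in textbook accounts, *Sox6* as its repressor. *Sox6* (ENSMUSG00000051910) lies on the minus strand of chr7:115470872-116038796. It had 44.13, 42.36, 48.87 and 35.68 TPM in *Nup210*-/- and 37, 39.62, 43.08 and 31.98 TPM in *Nup210*+/+ mice, with means of 42.8 ± 5.46 and 37.9 ± 4.68 TPM (SD, n = 4). As deposited these values interleave, and replicate 4 is the lowest of both genotypes. After scaling they were 46.64, 42.92, 48.68 and 38.12 against 35.99, 38.24, 38.36 and 33.51, so that *Nup210*-/- replicate 4 alone fell within the *Nup210*+/+ range. The log2 fold change was 0.26 (standard error 0.09, 95% interval 0.07 to 0.45, limma adjusted p = 0.223, unadjusted p = 0.0133). Over the 70 labelings, the two-sided exact permutation p was 0.257 for TPM as deposited and 0.0857 after scaling, where the smallest p that 4 against 4 mice allow is 0.0286. With TPM left as deposited, which moves the median of all genes from -0.01 to -0.08, the log2 fold change was 0.17 (limma adjusted p = 0.524). Without *Nup210*+/+ replicate 2 or 3 it was 0.28 in both cases.

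*Sox6* is transcribed from several starts, and 6 of its promoter windows were searched for short motifs of the factors described here. The windows are those of RefSeq on GRCm38.p6, from 250 bases before to 50 after a start, and 6 of the 9 regulators have 16 such windows in all. The stretches below show where the windows of *Sox6* hold these motifs, searched on both strands. What is called the ERR element here is only the half-site of the estrogen-related receptors (AAGGTCA). The MCAT element (CATTCC) is bound by Tead factors, and the MEF3 element (TCAGGTT) by the *Six4* protein and its relatives. Only these letters were searched, so bases next to them can differ from a full binding site. No link between motifs and the levels of the regulators was tested. *Sox6* has 6 of the 16 windows, and its stretches are shown as a description only. All are read 5′ to 3′ on the minus strand of chromosome 7, and capitals mark the motif or its reverse complement.
ERR element, chr7:116031091-116031147, 75 bases before a start: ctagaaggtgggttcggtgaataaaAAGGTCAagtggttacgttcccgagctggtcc
ERR element in reverse, chr7:115846308-115846364, 199 bases before a start: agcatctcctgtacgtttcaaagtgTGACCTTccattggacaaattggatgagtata
MCAT element, chr7:115846242-115846297, 132 bases before the same start: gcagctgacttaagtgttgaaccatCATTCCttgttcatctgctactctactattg
MCAT element in reverse, chr7:116038821-116038876, 107 bases before a start: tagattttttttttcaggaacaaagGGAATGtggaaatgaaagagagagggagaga
MEF3 element, chr7:115824887-115824943, 208 bases before a start: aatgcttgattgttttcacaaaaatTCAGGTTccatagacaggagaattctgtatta

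These letters are common in promoters. The ERR element is in 4.72% of 32851 RefSeq windows of the same length, MCAT in 14.7% and MEF3 in 4.07%. Among the 16 windows of the regulators, 2 held the ERR element, both of *Sox6*, 3 held MCAT, of *Sox6* and *Esrrg*, and 2 held MEF3, of *Sox6* and *Six4*. The windows of *Esrra*, *Ppargc1a* and *Prox1* held none of these letters. A match is a description of the sequence and was not tested for binding.

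*Prox1* (ENSMUSG00000010175), on the minus strand of chr1:190118035-190170714, encodes a homeodomain factor that is also the defining factor of lymphatic endothelium. It had 0.57, 1.1, 0.65 and 0.92 TPM in *Nup210*-/- and 0.87, 0.55, 0.9 and 0.9 TPM in *Nup210*+/+ mice, the lowest level of the 9 regulators. Both genotypes hold libraries near 0.6 TPM and libraries near 0.9 TPM, and the means were 0.81 ± 0.245 and 0.805 ± 0.171 TPM (SD, n = 4). The log2 fold change was 0.04 (-0.30 to 0.38, limma adjusted p = 0.927), on a scale that understates changes of so low a gene. The summed TPM of 5 other lymphatic markers was 39.6, 54.37, 46.11 and 45.26 in *Nup210*-/- and 68.22, 61.74, 88.67 and 54.29 in *Nup210*+/+ mice, and the part of lymphatic cells in *Prox1* was not tested. Exons of *Prox1* overlap those of *Prox1os* on the opposite strand.

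Among 3 relatives, *Sox5*, a close partner of *Sox6* in cartilage, had 0.22, 0.36, 0.36 and 0.38 TPM in *Nup210*-/- and 0.97, 0.71, 1.28 and 0.92 TPM in *Nup210*+/+ mice. The genotypes did not overlap, as for 4.58% of all genes in the lower direction, and the log2 fold change was -0.52 (-0.84 to -0.21, limma adjusted p = 0.169). Below 1 TPM the pseudocount sets the size of this value, which was -1.23 with a pseudocount of 0.1. The sign is opposite to that of the estimate of *Sox6*. *Prox2* had the highest estimate of the 3, 0.16 (limma adjusted p = 0.596).

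*Tead1* (ENSMUSG00000055320), on the plus strand of chr7:112679318-112906807, encodes the factor that binds MCAT elements and carries the output of the Hippo pathway together with Yap1. It had 53.94, 54.71, 48.92 and 45.28 TPM in *Nup210*-/- and 57.85, 45.1, 62.09 and 52.19 TPM in *Nup210*+/+ mice. The lowest library of each genotype was near 45 TPM, and the log2 fold change was 0.002 (-0.22 to 0.22, limma adjusted p = 0.994). Of 8 relatives and cofactors tested, none passed the adjusted threshold, 3 estimates were higher and 5 lower, and their median was -0.06. *Tead4*, which is induced in differentiating myoblasts, had 2.52, 1.84, 2.03 and 2.72 TPM against 1.01, 1.75, 1.62 and 1.44 TPM, and a log2 fold change of 0.48 (limma adjusted p = 0.209). Its genotypes did not overlap, for 1 of the 8 genes, beside 4.79% of all genes in the higher direction after scaling. *Vgll4*, a cofactor that competes with Yap1, had the lowest estimate, -0.40 (limma adjusted p = 0.417). *Vgll1* was listed at 0 in every library.

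*Ppargc1a* and *Ppargc1b* are the coactivators of mitochondrial growth, and their estimates had opposite signs. *Ppargc1a* (ENSMUSG00000029167), on the minus strand of chr5:51454250-51567726, had 8.45, 11.92, 11.77 and 9.04 TPM in *Nup210*-/- and 10.42, 9.61, 18 and 11.2 TPM in *Nup210*+/+ mice. *Nup210*+/+ replicate 3 is set apart from the 7 others, which lie between 8.45 and 11.92 TPM. The log2 fold change was -0.12 (-0.49 to 0.24, limma adjusted p = 0.761). Without that library it was 0.02, and without *Nup210*+/+ replicate 2 it was -0.22. The libraries with the highest *Ppargc1a* of each genotype, *Nup210*+/+ replicate 3 and *Nup210*-/- replicate 2, were also the ones with the brown fat markers *Ucp1* and *Cidea*, which summed to 14.19 and 6.84 TPM there and to 0.35 to 1.04 TPM in the others. In *Nup210*-/- this was a near tie, as replicate 3 had 11.77 TPM of *Ppargc1a* with only 0.78 TPM of these markers. Brown fat cells express *Ppargc1a* at high levels, and their part in these values was not tested.

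*Ppargc1b* (ENSMUSG00000033871), on the minus strand of chr18:61298136-61400431, had 3.84, 3.6, 4.82 and 3.92 TPM in *Nup210*-/- and 3.18, 2.66, 5.21 and 3.11 TPM in *Nup210*+/+ mice. Apart from *Nup210*+/+ replicate 3, the highest of all, each *Nup210*+/+ value lay below each *Nup210*-/- value. The log2 fold change was 0.25 (-0.08 to 0.58, limma adjusted p = 0.454) with all libraries. It was 0.38 (limma adjusted p = 0.256) without that replicate and 0.16 (limma adjusted p = 0.676) without *Nup210*+/+ replicate 2. The ratio of *Ppargc1a* to *Ppargc1b* TPM within a mouse, a measure chosen after the TPM were seen and so given without a test, was 2.2, 3.31, 2.44 and 2.31 in *Nup210*-/- and 3.28, 3.61, 3.46 and 3.6 in *Nup210*+/+ mice. *Nup210*-/- replicate 2 alone reached the *Nup210*+/+ range.

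*Esrra* and *Esrrg* encode 2 orphan nuclear receptors that bind the same DNA element, of which ERRgamma is the one most tied to slow oxidative fibers. *Esrra* (ENSMUSG00000024955), on the minus strand of chr19:6910977-6921813, had 50.97, 54.99, 53.19 and 53.36 TPM in *Nup210*-/- and 61.5, 46.7, 52.88 and 59.57 TPM in *Nup210*+/+ mice. The *Nup210*-/- values fell within the *Nup210*+/+ range, and the log2 fold change was 0.05 (-0.19 to 0.29, limma adjusted p = 0.869). Its exons overlap *Mir6990* on the same strand and *Trmt112* on the other, and the part of these genes in its level was not tested.

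*Esrrg* (ENSMUSG00000026610), on the plus strand of chr1:187608791-188214885, had 13.33, 18.36, 13.47 and 16.04 TPM in *Nup210*-/- and 21.16, 16.68, 21.4 and 21.11 TPM in *Nup210*+/+ mice. The means were 15.3 ± 2.39 and 20.1 ± 2.27 TPM (SD, n = 4), and the genotypes overlapped through *Nup210*+/+ replicate 2, which was below *Nup210*-/- replicate 2. The log2 fold change was -0.29 (standard error 0.13, 95% interval -0.57 to -0.0017, limma adjusted p = 0.35, unadjusted p = 0.0489), and the two-sided exact permutation p was 0.0571 for TPM as deposited and 0.114 after scaling. Without *Nup210*+/+ replicate 2, the library with granulocyte markers, the log2 fold change was -0.37 (limma adjusted p = 0.266). It lay between -0.38 and -0.22 over the 17 alternatives, 8 of which kept an unadjusted p below 0.05 and none an adjusted one.

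The balance of the 2 receptors was also described within each mouse. The ratio of *Esrra* to *Esrrg* TPM was 3.82, 3 and 3.95 in *Nup210*-/- replicates 1 to 3 and 3.33 in replicate 4, against 2.91, 2.8, 2.47 and 2.82 in *Nup210*+/+ mice. Each *Nup210*-/- value was above each *Nup210*+/+ value, with means of 3.52 ± 0.443 and 2.75 ± 0.191 (SD, n = 4). Among single genes, 9.38% did not overlap in scaled TPM, and the share among ratios of 2 genes was not computed. This ratio was also chosen after the TPM were seen and is given without a test, and it does not depend on how the libraries are scaled.

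**Figure D2:**
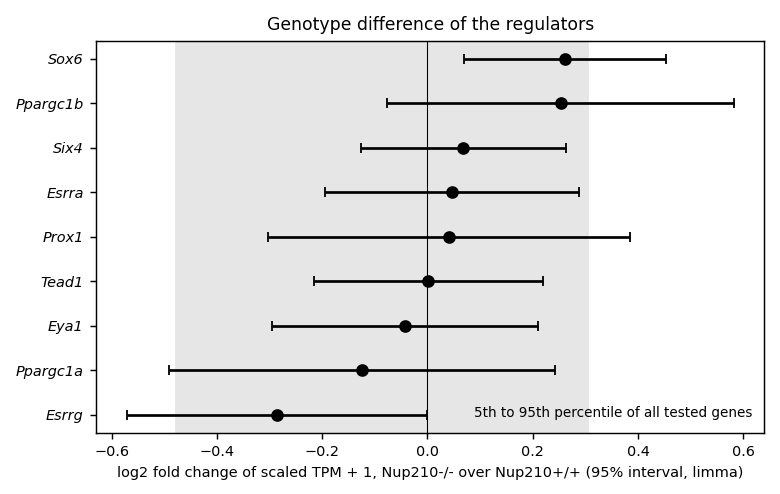
Log2 fold change of each regulator with its 95% interval from limma, *Nup210*-/- over *Nup210*+/+, on log2(scaled TPM + 1), ordered by size. The gray band is the 5th to 95th percentile of all tested genes, -0.48 to 0.30, and the 9 estimates, from -0.29 for *Esrrg* to 0.26 for *Sox6*, lie inside it.

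The genes that work around the PGC-1 coactivators had medians near 0. Of 18 partner factors such as *Ppara*, *Nrf1* and *Tfam*, none passed the adjusted threshold, and the median log2 fold change was 0.01, with *Pparg* at 0.29 (limma adjusted p = 0.513) and *Pprc1*, a further PGC-1 family member, at -0.17 (limma adjusted p = 0.458) as the ends. The retinoid X receptor *Rxra* was the only partner past an unadjusted p of 0.05, with 0.18 (limma adjusted p = 0.201). Of 16 modifiers and corepressors, which include the subunits of AMP-activated kinase that phosphorylate PGC-1alpha, none passed either, and the median was 0.01. At an unadjusted p of 0.05 limma called 2 of these higher and 1 lower, beside 14.2% of all genes. The kinase subunit *Prkaa2* had a log2 fold change of 0.13 (limma adjusted p = 0.273), and the muscle kinase subunit *Prkag3* had the lowest estimate of the list, -0.26 (limma adjusted p = 0.35).

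Among 35 oxidative genes that PGC-1 and ERR proteins are known to drive, 30 had a higher estimate in *Nup210*-/- muscle and 5 a lower one, with a median log2 fold change of 0.08, and none passed the adjusted threshold. Over all genes 48.7% of estimates were higher. The split depends on the scaling: with TPM as deposited 16 were higher and 19 lower, with a median of -0.01, while 30.4% of all genes were higher, and without *Nup210*+/+ replicate 2 it was 25 and 10. Muscle fiber markers were also higher in *Nup210*-/- libraries, as given above. *Cpt1b* and *Acsl1*, which carry fatty acids into oxidation, were the 2 of 35 genes past an unadjusted p of 0.05, beside 14.2% of all genes. The log2 fold change was 0.28 for *Cpt1b* (limma adjusted p = 0.306) and 0.42 for *Acsl1* (limma adjusted p = 0.245). *Acsl1* had 147.7, 185.7, 146.15 and 158.48 TPM in *Nup210*-/- and 133.21, 92.65, 152.22 and 134.86 TPM in *Nup210*+/+ mice, and its estimate was 0.27 without *Nup210*+/+ replicate 2, the lowest library. *Pdk4*, which diverts fuel from glucose to fat and moves with feeding, had the largest estimate, 1.04 (limma adjusted p = 0.451), with 39.6 to 361.32 TPM within *Nup210*+/+ mice alone. It was 0.56 without *Nup210*+/+ replicate 2 and 1.57 without replicate 3. *Vegfa*, the angiogenic growth factor, had the lowest, -0.24 (limma adjusted p = 0.427).

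Slow and fast fiber genes leaned in opposite directions without passing the test. Of 14 slow fiber genes, 3 had a higher and 11 a lower estimate, with a median of -0.15, and limma called none at an adjusted or an unadjusted p of 0.05. Without *Nup210*+/+ replicate 2, a library low in these genes, the median was -0.33, with 3 genes past an unadjusted p of 0.05. Without *Nup210*+/+ replicate 3 it was -0.18, with 0 genes past that p. *Nup210*-/- replicates 1 and 3 were also low in these genes, as given below. With all libraries, the ends of the list were *Myl6b* at 0.16 and the calcium pump inhibitor *Pln* at -0.32. Of 18 fast fiber genes, 17 had a higher and 1 a lower estimate, with a median of 0.16, none past the adjusted threshold and 6 called higher at an unadjusted p of 0.05, beside 7.00% of all genes. With TPM as deposited 11 were higher and 7 lower, with a median of 0.06. *Myh4*, the type IIb myosin, had the largest, 0.30 (0.06 to 0.54, limma adjusted p = 0.264), with 9237 ± 240 TPM against 8054 ± 774 TPM (SD, n = 4), and *Gpd1* was the gene with the lower estimate, -0.04.

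**Figure D3:**
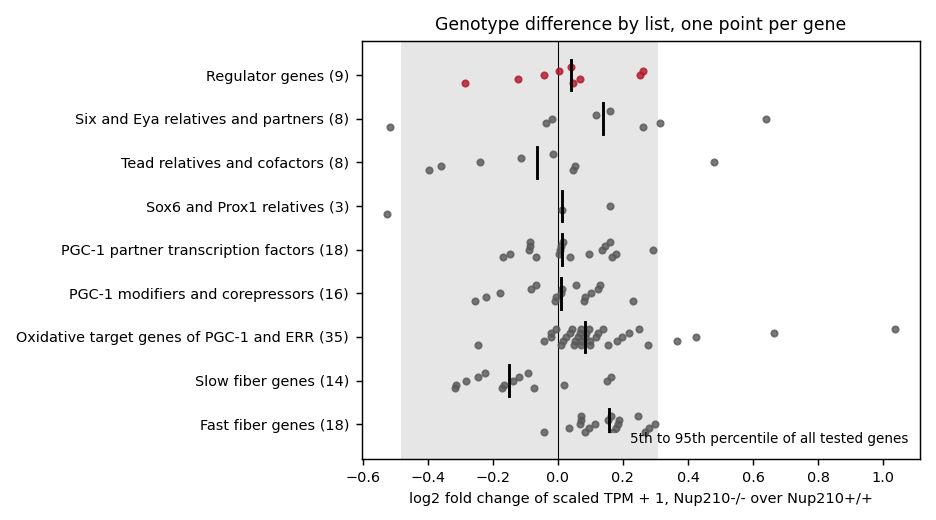
Log2 fold change of every tested gene, *Nup210*-/- over *Nup210*+/+, by list, 1 point for each gene, with the number of genes in brackets and the median of each list as a black bar; the regulators are in red and the gray band is the 5th to 95th percentile of all tested genes. The medians run from -0.15 for the slow fiber genes to 0.16 for the fast fiber genes, and that of the regulators is 0.04.

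The 8 mice differed in their slow fiber genes more than the genotypes did. The mean log2 level of the 14 slow fiber genes was 5.68, 6.41, 5.67 and 6.42 in *Nup210*-/- and 6.39, 5.77, 6.09 and 6.45 in *Nup210*+/+ mice, on the log2(scaled TPM + 1) scale. Of these, 2 *Nup210*-/- libraries and 1 *Nup210*+/+ library were low, 2 and 2 were high, and *Nup210*+/+ replicate 3 lay between. *Myh7*, the type I myosin, had 60.67 and 61.61 TPM in the 2 low *Nup210*-/- libraries and 139.54 and 127.61 TPM in the high ones. A relation with this level over 8 mice is therefore largely a contrast of 3 low with 4 high libraries.

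Whether the regulators moved with fiber makeup was examined in 63 relations over the 8 libraries, 36 between pairs of regulators and 27 with the slow, fast and oxidative levels. None passed an adjusted p of 0.05, and 5 had an exact permutation p below 0.05 for Pearson's r. *Prox1* followed the slow fiber level, with r = 0.91 (exact permutation p = 0.00325, adjusted p = 0.182) and rho = 0.81 (exact permutation p = 0.0218, adjusted p = 0.44), and r was 0.91 without the 2 libraries farthest from the median. *Esrrg* followed it with r = 0.86 (exact permutation p = 0.00947, adjusted p = 0.199) and rho = 0.79 (exact permutation p = 0.0279, adjusted p = 0.44), and r was 0.63 without those 2 libraries. *Sox6* ran the other way, with r = -0.69 (exact permutation p = 0.0626, adjusted p = 0.657) and rho = -0.79 (exact permutation p = 0.0279, adjusted p = 0.44), but r was -0.15 without *Nup210*-/- replicates 1 and 3, so that this relation rests on those libraries. The values share each library's scaling factor, and *Prox1* was measured near 1 TPM.

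**Figure D4:**
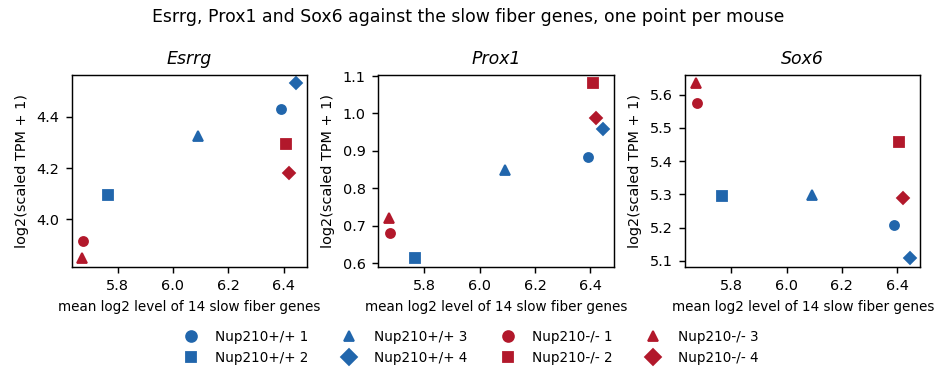
Log2(scaled TPM + 1) of *Esrrg*, *Prox1* and *Sox6* in each mouse against the mean log2 level of 14 slow fiber genes, with *Nup210*+/+ in blue and *Nup210*-/- in red. *Esrrg* and *Prox1* slope upward and *Sox6* slopes downward, with r of 0.86, 0.91 and -0.69 over 8 libraries, none past an adjusted p of 0.05.

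*Sox6* and *Esrrg* were the pair of regulators with the largest r, -0.87 (exact permutation p = 0.00578, adjusted p = 0.182), with rho = -0.81 (exact permutation p = 0.0218, adjusted p = 0.44) and r = -0.58 without *Nup210*-/- replicates 1 and 3. Part of that relation lies between the genotypes, whose estimates for the 2 genes have opposite signs. After the mean of each genotype was subtracted, r was -0.78 (exact permutation p within genotypes = 0.0556, adjusted p = 0.269). The same step brought the r of *Prox1* and *Esrrg* from 0.66 to 0.98, and those of *Prox1* and *Esrrg* with the slow fiber level to 0.97 each. With values permuted within each genotype, the exact permutation p of these 3 was 0.00347, 0.00694 and 0.00521, where the smallest p possible was 0.00174. Adjusted over the 63 relations, these exact permutation p were 0.0729, 0.0875 and 0.082, so none passed. Even the smallest p possible would not pass this adjustment on its own, so not passing does not show that a relation is absent.

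*Esrra* was compared with the oxidative genes and with the slow ones. With the slow fiber level its r was 0.64 (exact permutation p = 0.0958, adjusted p = 0.658) and rho = 0.74 (exact permutation p = 0.0458, adjusted p = 0.577), and r was 0.56 without *Nup210*+/+ replicate 2. After the genotype means were subtracted, r with the slow fiber level was 0.70. The exact permutation p within genotypes was then 0.00174, the smallest possible, with an adjusted p of 0.0729. With the mean level of the 35 oxidative genes, r was 0.73 (exact permutation p = 0.0339, adjusted p = 0.535) and rho = 0.60 (exact permutation p = 0.132, adjusted p = 0.695), and r was 0.50 without the 2 farthest libraries. *Prox1* had r = 0.69 (exact permutation p = 0.0432, adjusted p = 0.545) and rho = 0.69 (exact permutation p = 0.0694, adjusted p = 0.625) with the same genes, and r = 0.36 without the 2 farthest. Without *Nup210*+/+ replicate 2, the library with the lowest oxidative level, the r with the oxidative genes were 0.45 for *Esrra* and 0.47 for *Prox1*.

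**Figure D5:**
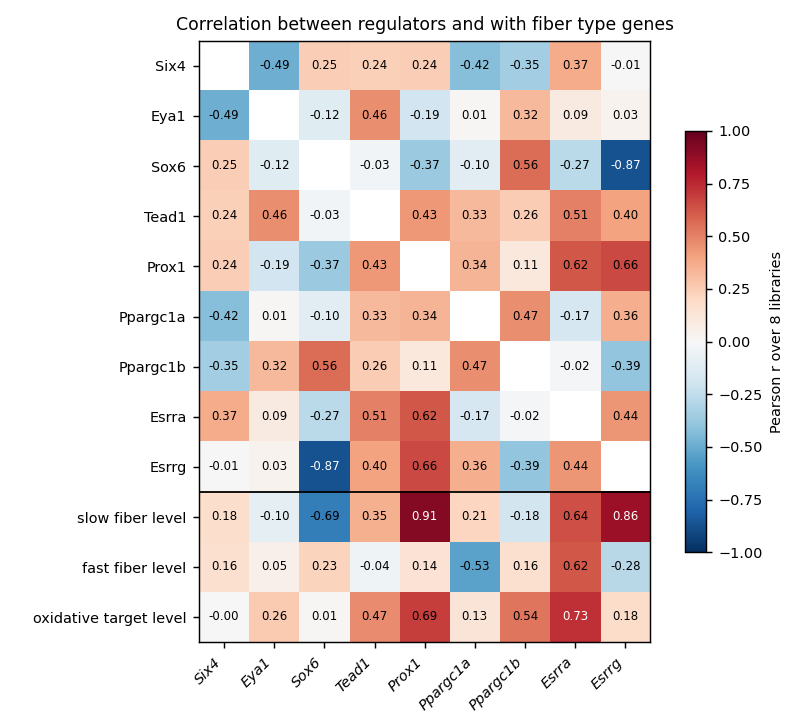
Pearson r over 8 libraries for each pair of regulators and, below the line, between each regulator and the mean level of the slow fiber, fast fiber and oxidative genes, from blue at -1 to red at 1. The darkest cells are *Prox1* with the slow fiber level at 0.91, *Sox6* with *Esrrg* at -0.87 and *Esrrg* with the slow fiber level at 0.86.

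The genes most like each regulator were found from Pearson's r over the 8 libraries after the genotype means were subtracted, among the 14229 tested genes, as a description. For *Esrrg* they were *Pdlim1* at 0.99, the peroxisomal transporter *Abcd3* at 0.99 and the slow calcium pump *Atp2a2*, one of the slow fiber genes, at 0.98. For *Prox1* they were *Adprhl1* at 0.99, *Gm12092* at 0.99 and *Esrrg* at 0.98. For *Esrra* they were the mitochondrial hydratase *Auh* at 0.995, the respiratory complex III subunit *Uqcrc1* at 0.98 and *Adamtsl5* at 0.97. *Eya1* was closest to the deacetylase *Sirt1*, *Txnrd2* and *Gm15972*, *Sox6* to *Gm21807*, *Klf12* and *Ctr9*, *Tead1* to *Pcolce*, *Lysmd3* and *Vps13d*, and *Six4* to *Zufsp*, *Rassf1* and *Crhr2*. *Ppargc1a* was closest to *Il18bp* and *Zdhhc14*, and *Ppargc1b* to *Agk* and *Gbp4*. These values of r were 0.954 to 0.995 for the 3 closest genes of each regulator, the largest of many genes over few mice.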

How the data were processed

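Directional libraries of polyadenylated RNA were sequenced. The authors trimmed reads with cutadapt 2.3, aligned them to mm10 with STAR 2.7.0d, and deposited TPM per gene and library from RSEM 1.3.1 with Ensembl annotations. Reads behind the values are unknown, so precision rests on the 4 mice of a genotype. The count test of the methods could not be run on TPM.

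TPM were divided by the median of ratios over 15225 genes above 0 in all libraries (factors 0.936 to 1.12), and log2(scaled TPM + 1) was tested for the 14229 genes whose mean TPM reached 0.5, using limma 3.58.1 (intensity trend, genotype only, Benjamini-Hochberg) in R 4.3.3. The fit was tested on simulated data. Exact permutation tests (SciPy 1.17.1, Python 3.11.15; figures with matplotlib 3.10.9) were two-sided.

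The regulators and gene lists were chosen with earlier results of these data known. Besides the regulators and *Nup210*, the rule named the genes with the largest and smallest log2 fold change of a list and 3 like genes per regulator. *Eya4*, *Rxra*, *Prkaa2*, *Acsl1*, *Cpt1b* and *Myh7* were named after their values were seen, and some genes that the rule chose are not reported here. Coordinates are from GENCODE M21 (GRCm38).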

Additional observations from a re-analysis of the deposited data

Results flagged for a closer look

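In 52 groups of 4 libraries, the gap of 1 library to the nearest other was compared with Dixon's 95% critical value, which chance passes in about 1 of 20 groups, or 2.6 of 52. It was passed in 6. *Nup210*+/+ replicate 2 was low in *Prox1*, with 0.55 TPM against 0.87 to 0.9 in the other *Nup210*+/+ libraries, and in *Esrrg*, with 16.68 TPM against 21.11 to 21.4. The same library had 381.7 TPM of granulocyte precursor markers against 0.31 to 2.12. The brown fat markers summed to 14.19 TPM in *Nup210*+/+ replicate 3 against 0.35 to 0.43, and to 6.84 TPM in *Nup210*-/- replicate 2 against 0.63 to 1.04. Muscle fiber markers summed to 82390 TPM in *Nup210*-/- replicate 3 against 76850 to 77560.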

How the results depend on the processing

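No regulator passed an adjusted p of 0.05 under any of the 17 alternatives (pseudocounts of 0.1 and 0.5, 2 other filters, TPM as deposited, upper-quartile scaling, limma without the trend, library weights, a replicate block, and each library left out), and *Prox1* gave no value at a mean TPM of at least 1, where it was not tested. *Sox6* stayed higher (0.17 to 0.33) and *Esrrg* lower (-0.38 to -0.22). Estimates near 0 turned sign, and the cause was not tested. With TPM as deposited these were *Six4* at -0.0175, *Tead1* at -0.091, *Prox1* at -0.000645 and *Esrra* at -0.0457, and with library weights *Tead1* at -0.0306, *Prox1* at -0.00712 and *Esrra* at -0.0229. With 1 library left out, estimates ran from -0.13 to 0.031 for *Eya1*, -0.0835 to 0.0382 for *Tead1*, -0.0306 to 0.103 for *Prox1*, -0.22 to 0.023 for *Ppargc1a* and -0.0298 to 0.124 for *Esrra*. *Eya1* turned without *Nup210*-/- replicate 2 or *Nup210*+/+ replicate 3, *Tead1* without *Nup210*-/- replicate 1 or 2 or *Nup210*+/+ replicate 2, *Prox1* without replicate 2 of either genotype, *Ppargc1a* without *Nup210*+/+ replicate 3, and *Esrra* without *Nup210*+/+ replicate 2 or 3. Among the genes at the ends of the lists, leaving out 1 library brought *Eya2* to -0.24 and *Pln* to -0.15 (*Nup210*-/- replicate 1), *Vgll4* to -0.25 (*Nup210*-/- replicate 4 or *Nup210*+/+ replicate 1), *Vegfa* to -0.14 (*Nup210*+/+ replicate 1) and *Pparg* to 0.14 (*Nup210*+/+ replicate 4).

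Over all genes 16 passed the adjusted threshold, against 1 with any TPM above 0, 27 at a mean TPM of at least 1, 84 with library weights, 0 with upper-quartile scaling, 0 without the trend, and 0 to 10 with a library left out. Of the regulators, 1 in place of 2 passed an unadjusted p of 0.05 with any TPM above 0, TPM as deposited, upper-quartile scaling or no trend, and 1 to 2 with a library left out. With a library left out, 1 to 11 oxidative genes in place of 2 and 2 to 10 fast fiber genes in place of 6 passed an unadjusted p of 0.05, the highest of both without *Nup210*+/+ replicate 4. The genotypes did not overlap for 1 regulator, *Sox6*, with upper-quartile scaling, and for 0 to 1 with a library left out: *Sox6* without *Nup210*-/- replicate 4, *Esrrg* without *Nup210*+/+ replicate 2 and *Ppargc1b* without *Nup210*+/+ replicate 3.

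Replicate numbers did not pair the mice: the deviations of same-numbered libraries correlated by -0.03 to 0.09 across genes. With the replicate number as a block, 0 genes passed the adjusted threshold and 1 regulator an unadjusted p of 0.05.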

Other observations

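Of 6 markers of satellite cells, the stem cells of muscle, 5 were tested. All 5 had a higher estimate in *Nup210*-/- muscle, with a median log2 fold change of 0.12, where 48.7% of all genes were higher, and 2 were called higher by limma at an unadjusted p of 0.05, beside 7.00% of all genes, and none at the adjusted threshold. With TPM as deposited 4 were higher and 1 lower. The adhesion protein *Cdh15* had the largest estimate, 0.33. The summed TPM of all 6 was 20.6 to 25.48 in *Nup210*-/- and 19.41 to 21.71 in *Nup210*+/+ mice. This list was described after its values were seen.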
